A study of Mus musculus with 4 samples.

Results

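Cell cycle and DNA replication genes are the genes whose mRNA a cell makes while it copies its DNA and divides. A list of 47 of them was taken from the RNA-seq table of gonadal white adipose tissue (gWAT) by gene symbol. The list was set with earlier results of these data known. All 47 were among the 17335 genes of the table, and all 47 were among the 15839 genes with at least 0.1 FPKM in 1 of the libraries. FPKM is the number of fragments scaled by transcript length and by library size. The libraries are from gWAT of female mice of 2 groups fed high-fat diet (HFD) for 18 weeks. AD1KO mice carry floxed Dnmt1 alleles and adiponectin-Cre and lack Dnmt1, the maintenance DNA methyltransferase, in adipocytes. The fl/fl mice are floxed littermates without the Cre deletion, so that both groups carry loxP sites around exons 4 and 5 of Dnmt1 and both ate HFD. Adiponectin-Cre is active mainly in mature adipocytes, while the RNA came from the whole fat pad with its stromal, vascular and immune cells. The age of the mice at the start of the diet was not given for these libraries in the sources used here. RNA of 4 animals per group was pooled into 1 library, so there is no spread between animals, and no test of the genotype was possible.

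Most mature cells of a fat pad do not divide. In obese fat, dividing cells are known among macrophages, other immune cells, progenitors and endothelial cells. A cell that enters the cycle first turns on cyclin E and the genes that license origins and copy DNA, through the E2F transcription factors. Genes for the spindle, the kinetochore and cell separation follow, and many of them are switched by the MuvB complex with B-MYB and FOXM1. MKI67 and TOP2A are present mainly in cycling cells and serve as markers of them.

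Dnmt1, the targeted gene, stood at 6.99 FPKM in fl/fl against 3.33 in AD1KO, a log2 ratio of AD1KO over fl/fl of -1.07 (95% counting interval -1.27 to -0.87). Esr1, the estrogen receptor gene that the study follows, was higher in AD1KO (4.82 against 8.44 FPKM, log2 ratio 0.81). The Dnmt1 value counts reads of the whole transcript and was not resolved to the deleted exons. Dnmt1 is also an S phase gene, and Uhrf1, which brings the enzyme to newly copied DNA and was not targeted, stood at 5 FPKM in fl/fl against 2.47 in AD1KO (log2 ratio -1.01). The ratios of both lay inside the range of the cell cycle genes given next.

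The 47 listed genes were lower in the AD1KO library almost throughout. Of the 47, 37 (78.7%) had a log2 ratio of AD1KO over fl/fl at or below -0.5, the size the study used to call a gene, against 19.1% of all genes tested. None was at or above 0.5, against 14.3% of all genes. This holds for the chosen 47. In the broad annotation term cell cycle, with the 47 left out, 31 of 241 genes (12.9%) were at or below -0.5. The median log2 ratio of the 47 was -0.79 and that of all genes tested was -0.04. The lowest ratios were those of Rrm2, the small subunit of ribonucleotide reductase, and Mcm5, a subunit of the replicative helicase. The mRNAs of cyclin E, Ccne1 and Ccne2, were the 2 with a ratio above 0. In bulk tissue, fewer cycling cells and less of these mRNAs in each cell cannot be told apart.

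Ratios carry a 95% exact (Clopper-Pearson) interval from estimated reads, which covers counting error only and not the variation between mice. In 43 of the 47 genes (91.5%) the whole interval lay below 0, against 29% of all genes tested, and in none did it lie above 0, against 21.5%. The interval included 0 for Ccne1, Ccne2, Cdc6 and Gins1. In 21 genes the whole interval lay at or below -0.5, a count for which the share of all genes was not computed. A total of 45 (95.7%) had a ratio under 0, against 53.8% of all genes. A ratio at or below -1 was reached by 9 genes (19.1% of the 47), against 8.95% of all genes: Mcm2, Mcm3, Mcm5, Rrm2, Ccnb2, Bub1, Cdc20, Mki67 and Top2a. The genes were not thinly read. The lowest, Ccne2, had 63 reads over both libraries and the median of the 47 was 397, and among all genes with at least 63 reads 15.4% were at or below -0.5 and 9.69% at or above 0.5. Summed over the 47 genes, 17615 reads in fl/fl stood against 10165 in AD1KO. The log2 ratio of the sums was -0.78 (interval -0.82 to -0.75), and -0.77 without Pcna and Stmn1, the most abundant of the 47.

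**Figure D1:**
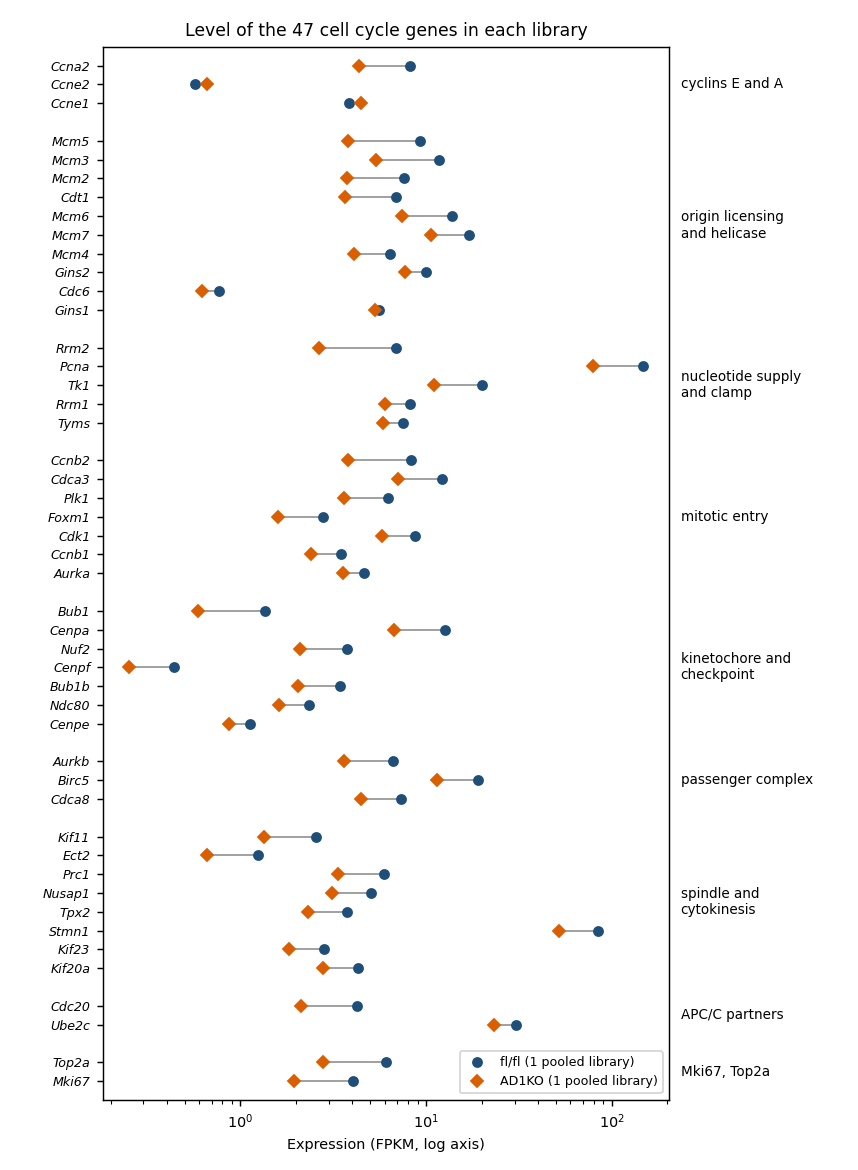
Expression of the 47 cell cycle genes in FPKM on a log axis, grouped by role, with circles for the fl/fl library and diamonds for the AD1KO library (1 pooled library each). The diamond lies left of the circle for 45 genes and right of it for Ccne1 and Ccne2, and levels span from 0.44 FPKM (Cenpf) to 149 FPKM (Pcna) in fl/fl.

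The promoters of these genes are described next by the sequence words they hold. A link between the words and the ratios was not tested. Promoter sequences of 37 of the 47 genes, from 250 bases before to 50 after the start, were found in a RefSeq table of mouse build GRCm38.p6. Not found were Aurkb, Ccna2, Ccne2, Foxm1, Gins1, Gins2, Kif20a, Mcm4, Stmn1 and Tpx2. In all, 3 kinds of words were searched on both strands. CCAAT is the box bound by NF-Y. TTTGAA is the common form of the cell cycle genes homology region (CHR), the element bound by MuvB, and its variant TTCGAA was searched too. TTTCGCGC, TTTGGCGC, TTTCCCGC and TTTGCCGC are words of E2F sites. The words of 1 kind can overlap each other when read on opposite strands, as at the first E2F words of Mcm6, while no word of 1 kind contains a word of another kind.

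The 150 bases before the start are given 5′ to 3′ on the strand of each gene, with the words in capitals (ATTGG is the NF-Y box read on the other strand, and TTCAAA the CHR element). The first 5 are mitotic genes, chosen to show NF-Y boxes and CHR elements before the start. They are Cdk1 (chr10:69352913-69353062, minus strand), Ccnb2 (chr9:70421555-70421704, minus), Cdc20 (chr4:118437344-118437493, minus), Kif11 (chr19:37376232-37376381, plus) and Top2a (chr11:99024190-99024339, minus).
Cdk1: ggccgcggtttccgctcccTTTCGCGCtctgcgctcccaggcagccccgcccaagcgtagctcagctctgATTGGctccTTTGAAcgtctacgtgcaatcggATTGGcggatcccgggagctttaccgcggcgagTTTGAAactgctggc
Ccnb2: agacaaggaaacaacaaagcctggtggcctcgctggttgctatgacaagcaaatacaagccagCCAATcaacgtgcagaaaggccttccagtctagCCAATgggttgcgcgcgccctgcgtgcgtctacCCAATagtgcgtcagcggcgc
Cdc20: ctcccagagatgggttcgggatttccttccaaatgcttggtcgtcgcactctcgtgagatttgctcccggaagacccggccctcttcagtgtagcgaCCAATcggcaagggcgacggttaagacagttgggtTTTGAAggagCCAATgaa
Kif11: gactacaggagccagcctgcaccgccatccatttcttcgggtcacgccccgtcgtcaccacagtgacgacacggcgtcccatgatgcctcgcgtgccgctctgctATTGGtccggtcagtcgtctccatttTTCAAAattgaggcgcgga
Top2a: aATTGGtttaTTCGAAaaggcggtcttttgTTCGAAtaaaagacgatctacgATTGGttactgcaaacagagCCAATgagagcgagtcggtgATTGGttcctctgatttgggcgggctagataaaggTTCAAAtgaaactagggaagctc
The next 3 are genes of the G1 to S transition. Mcm6 (chr1:128359706-128359855, minus) shows E2F words beside NF-Y boxes, Rrm2 (chr12:24708104-24708253, plus) is the gene with the lowest ratio, and Ccne1 (chr7:38107491-38107640, minus) is the gene with the highest.
Mcm6: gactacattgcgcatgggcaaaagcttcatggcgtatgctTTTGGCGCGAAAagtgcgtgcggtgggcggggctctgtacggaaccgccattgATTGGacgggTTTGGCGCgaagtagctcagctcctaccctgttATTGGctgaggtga
Rrm2: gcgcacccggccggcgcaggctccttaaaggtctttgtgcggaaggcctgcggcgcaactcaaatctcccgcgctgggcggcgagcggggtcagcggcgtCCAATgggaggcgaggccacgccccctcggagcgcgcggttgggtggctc
Ccne1: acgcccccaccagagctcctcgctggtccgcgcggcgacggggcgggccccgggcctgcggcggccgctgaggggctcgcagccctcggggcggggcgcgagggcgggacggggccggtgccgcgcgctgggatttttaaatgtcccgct
In Cdk1 an NF-Y box starts at position -48 and a CHR element at -15, and an E2F word lies farther out at -131. Ccnb2 holds NF-Y boxes at -87, -54 and -21, evenly spaced, and no CHR element in the bases shown, since its CHR elements lie at -167 and 5. Cdc20 has NF-Y boxes at -53 and -8 with a CHR element between them at -18, and Kif11 has a box at -45 and a CHR element at -19. Ccne1 has none of the words in these bases.

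An NF-Y box was found in 28 of the 37 promoters (75.7%), against 41.1% of the 27025 genes with a promoter in the RefSeq table. A CHR element was found in 21 (56.8%), against 21.7% of all genes. An E2F word was found in 7 (18.9%), against 2.6%. NF-Y boxes were found in most promoters of both role groups, while counts of CHR elements and E2F words differed between them, a difference that was not tested. Of the 24 promoters of genes acting in mitosis, together with Mki67 and Top2a, 20 held an NF-Y box, 19 a CHR element and 1, that of Cdk1, an E2F word. Of the 13 promoters of cyclin, licensing and nucleotide genes, 8 held an NF-Y box, 2 (Mcm2 and Mcm7) a CHR element and 6 an E2F word, those of Cdc6, Cdt1, Mcm3, Mcm5, Mcm6 and Mcm7. The ratios of genes with and without each word are given as a description. The median log2 ratio was -0.79 in the 21 genes with a CHR element, of which 19 were at or below -0.5, and -0.78 in the 16 without, of which 11 were. It was -0.86 in the 28 genes with an NF-Y box (24 at or below -0.5) and -0.70 in the 9 without (6 at or below -0.5). It was -0.90 in the 7 genes with an E2F word (6 at or below -0.5) and -0.79 in the 30 without (24 at or below -0.5). A word in a promoter is a match of letters and does not show that a factor was bound in this tissue.

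**Figure D2:**
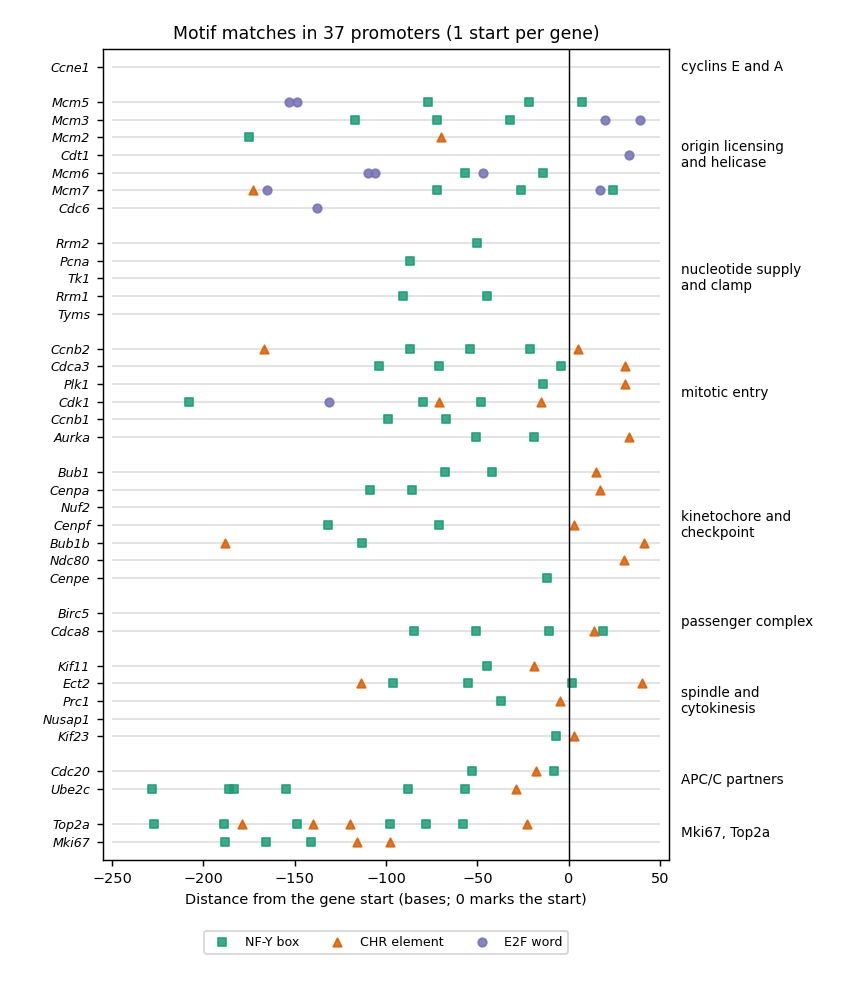
Positions of NF-Y boxes (squares), CHR elements (triangles) and E2F words (circles) along 37 promoters, in bases from the gene start (x axis), with 1 start per gene and genes grouped by role. NF-Y boxes lie mostly before the start, and 6 of the 7 genes with an E2F word are licensing and helicase genes.

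The cyclins of the G1 to S transition did not move together. Ccne1, which activates CDK2 at the start of S phase, was at 3.85 FPKM in fl/fl against 4.49 in AD1KO. Its log2 ratio was 0.22 with an interval from -0.13 to 0.57. Ccne2 had a similar ratio of 0.21 at a low level, 0.57 against 0.66 FPKM, and its interval ran from -0.52 to 1.01. Neither difference was larger than counting error. Ccna2, the cyclin of S and G2 phase, was by contrast at 8.22 FPKM in fl/fl against 4.38 in AD1KO. The interval of its log2 ratio of -0.91 (-1.13 to -0.68) did not overlap those of Ccne1 and Ccne2. In the mm9 annotation Ccna2 shares 512 exon bases with Exosc9, and Ccne2 shares 609 with Ints8. Reads of Ccna2 and Ccne2 may therefore include reads of those genes.

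All subunits of the MCM2-7 helicase, the ring that unwinds DNA at the fork, were lower in AD1KO. Their log2 ratios ran from -1.29 to -0.64 with a median of -0.96, and the interval of each lay below 0. Mcm5 (chr8:77633427-77652338 in mm9, plus strand) had 9.31 FPKM in fl/fl against 3.81 in AD1KO, a ratio of -1.29. Mcm3 had 11.8 and 5.39 FPKM, a ratio of -1.12. Mcm2 had 7.59 and 3.75 FPKM, a ratio of -1.02. These subunits were the lowest of the ring. Mcm6 (13.8 and 7.39 FPKM) was at -0.90, Mcm7 (17.0 and 10.6 FPKM) at -0.68 and Mcm4 (6.40 and 4.09 FPKM) at -0.64. The intervals of Mcm5 (-1.52 to -1.06) and of Mcm4 (-0.88 to -0.41) did not overlap. The most abundant subunit stood 2.65-fold above the least abundant in fl/fl and 2.83-fold in AD1KO.

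Loading and firing factors were less uniform. Cdt1, which loads the helicase at origins, was at 6.92 FPKM in fl/fl against 3.67 in AD1KO, a log2 ratio of -0.91. Cdc6, which acts with it, was scarce in both libraries (0.77 and 0.62 FPKM), and its ratio of -0.31 had an interval from -0.89 to 0.26. Gins1 and Gins2 encode subunits of GINS, which joins the helicase when origins fire. Gins1 was at 5.57 and 5.34 FPKM, a ratio of -0.06 (interval -0.49 to 0.36). Gins2 was at 10.1 and 7.74 FPKM, a ratio of -0.38 (interval -0.72 to -0.04), and 2758 of its exon bases in the mm9 annotation are shared with Gse1. The Gins1 interval lay above that of each MCM subunit except Mcm4.

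Among genes of nucleotide supply, Rrm2 (chr12:25393106-25399011 in mm9, plus strand) had the lowest ratio of all 47. It was at 6.88 FPKM in fl/fl against 2.66 in AD1KO, a log2 ratio of -1.37 (interval -1.73 to -1.03). Rrm1, the large subunit of the same enzyme, is known to vary less over the cell cycle. It was at 8.17 and 5.99 FPKM, a ratio of -0.45 (interval -0.64 to -0.26). The intervals of the subunits did not overlap, so the 2 transcripts stood at unlike ratios: Rrm2 was a little below Rrm1 in fl/fl and less abundant by a wider margin in AD1KO. Tk1, the thymidine kinase of S phase, had 20.1 and 11 FPKM, a ratio of -0.86. Tyms, thymidylate synthase, had 7.53 and 5.86 FPKM, a ratio of -0.36. Pcna (chr2:132074898-132079050 in mm9, minus strand) encodes the sliding clamp of DNA polymerases and was the most abundant of the 47, at 149 FPKM in fl/fl against 79.1 in AD1KO. With 3002 and 1586 reads it was also the most precisely measured, with a log2 ratio of -0.91 (interval -1.0 to -0.82). Pcna and Tyms have annotated copies in the genome, and reads may have been divided between them.

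**Figure D3:**
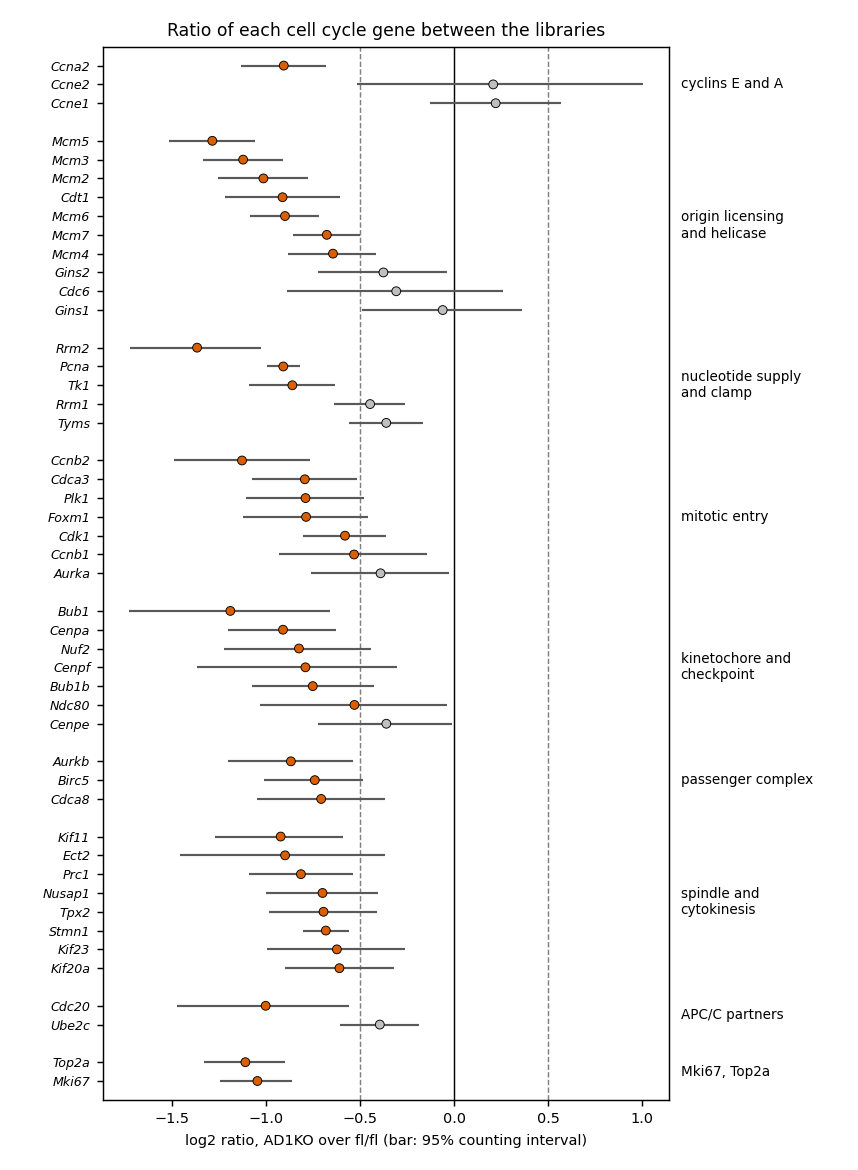
Log2 ratio of AD1KO over fl/fl for each of the 47 genes (points), grouped by role, with 95% counting intervals (bars) and dashed lines at -0.5 and 0.5. Orange points mark the 37 genes at or below -0.5, and the intervals of Ccne1, Ccne2, Cdc6 and Gins1 cross 0.

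Genes of mitotic entry were lower in 6 of 7 cases, with a median log2 ratio of -0.79. Cdk1, the mitotic kinase, had 8.68 FPKM in fl/fl against 5.80 in AD1KO, a ratio of -0.58 (interval -0.81 to -0.36). Its cyclin partners gave unlike ratios with overlapping intervals. Ccnb1 had 3.49 and 2.41 FPKM, a ratio of -0.53 (interval -0.93 to -0.15), and Ccnb2 had 8.32 and 3.8 FPKM, a ratio of -1.13 (interval -1.49 to -0.77). Foxm1, the factor that drives mitotic genes, had 2.77 and 1.6 FPKM, a ratio of -0.79. Plk1, a kinase of mitotic entry and spindle assembly, had 6.27 and 3.62 FPKM, also -0.79. Cdca3, which promotes mitotic entry, had 12.3 and 7.07 FPKM, a ratio of -0.79. Aurka, the kinase of the spindle poles, was the exception at this threshold, with 4.66 and 3.55 FPKM and a ratio of -0.39 (interval -0.76 to -0.03).

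Kinetochore and spindle checkpoint genes were lower in 6 of 7 cases, again with a median of -0.79. Bub1, the checkpoint kinase, had 1.36 FPKM in fl/fl against 0.59 in AD1KO, a log2 ratio of -1.19 that rests on 145 reads (interval -1.73 to -0.66). Bub1b, its relative in the mitotic checkpoint complex, had 3.46 and 2.05 FPKM, a ratio of -0.75. Cenpa, the histone H3 variant of centromeres, had 12.7 and 6.73 FPKM, a ratio of -0.91. Ndc80 and Nuf2 encode partners in the complex that holds microtubules. Nuf2 had 3.73 and 2.10 FPKM, a ratio of -0.83. Ndc80 had 2.33 and 1.61 FPKM, a ratio of -0.53 (interval -1.03 to -0.04). The large outer proteins were scarce. Cenpf had the lowest level of the 47 in both libraries (0.44 and 0.25 FPKM, ratio -0.79), and Cenpe, a kinesin motor, had 1.12 and 0.87 FPKM, a ratio of -0.36 (interval -0.73 to -0.01).

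The chromosomal passenger complex, which corrects the attachment of chromosomes, was lower in all 3 genes measured. Aurkb, its kinase, had 6.6 FPKM in fl/fl against 3.61 in AD1KO, a log2 ratio of -0.87. Birc5, survivin, had 19.2 and 11.5 FPKM, a ratio of -0.74. Cdca8, borealin, had 7.29 and 4.46 FPKM, a ratio of -0.71. Each of the ratios lay inside the intervals of the other two. The intervals of Aurkb (-1.20 to -0.54) and Aurka overlapped.

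All 8 genes of the spindle and cytokinesis were at or below -0.5, in the narrow range of -0.92 to -0.61. Kif11, the kinesin that separates spindle poles, had 2.55 FPKM in fl/fl against 1.34 in AD1KO, a log2 ratio of -0.92. Ect2, which activates RhoA at the cleavage furrow, had 1.24 and 0.66 FPKM, a ratio of -0.90. Prc1, which bundles the central spindle, had 5.92 and 3.36 FPKM, a ratio of -0.82. The other spindle genes lay a little nearer to 0. Nusap1, a microtubule-binding protein, had 5.06 and 3.11 FPKM (-0.70), Tpx2, which activates Aurora A, had 3.73 and 2.30 (-0.70), and Kif23 and Kif20a, kinesins of the midzone, had 2.81 and 1.82 (-0.62) and 4.28 and 2.80 (-0.61). Stmn1, which destabilises microtubules and is expressed outside mitosis too, was abundant, with 84.1 FPKM in fl/fl against 52.4 in AD1KO and a ratio of -0.68 (interval -0.81 to -0.56).

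Partners of the anaphase-promoting complex gave unlike ratios with intervals that overlapped at their ends. Cdc20, its activator in mitosis, had 4.24 FPKM in fl/fl against 2.11 in AD1KO, a log2 ratio of -1.0 (interval -1.47 to -0.56). Ube2c, the ubiquitin-conjugating enzyme that serves it, had 30.6 and 23.3 FPKM, a ratio of -0.40 (interval -0.61 to -0.19), and shares 592 exon bases with Tnnc2 in the annotation. The markers of cycling cells were among the lowest of all. Mki67 (chr7:142881471-142908062 in mm9, minus strand) had 4.02 FPKM in fl/fl against 1.94 in AD1KO, a ratio of -1.05 (interval -1.24 to -0.86). Top2a, the topoisomerase that untangles sister chromatids, had 6.06 and 2.80 FPKM, a ratio of -1.11 (interval -1.33 to -0.90).

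The ratio did not follow the level. Of the 11 genes with at least 10 FPKM in fl/fl, 9 were at or below -0.5, and of the 33 genes between 1 and 10 FPKM, 27 were, with medians of -0.79 in both classes. Of the 3 genes under 1 FPKM, Ccne2, Cdc6 and Cenpf, only Cenpf was. Nor did the genes sit together in the genome: they lay on 17 chromosomes, with at most 8 on 1 chromosome, chromosome 2. Reads of 17 genes may be shared with an overlapping gene or an annotated copy, and among the other 30 genes 24 were at or below -0.5. Besides those marked above, the 17 include Kif20a, which shares 1259 exon bases with Cdc23. Mcm7 shares 557 with Ap4m1, Cops6, Mir25 and Mir93, and Ccnb1, Ccnb2 and Stmn1 have annotated copies. The rest are Tk1, Foxm1, Cdca8, Nusap1, Cdc20 and Top2a, with smaller overlaps.

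Other genes of the cell cycle pathway, which are not among the 47, were read from 5 further lists. Of 40 other replication genes, 18 were at or below -0.5 and 1 was at or above 0.5, with a median log2 ratio of -0.47. Dnmt1, the targeted gene, and Uhrf1 are among the 18. The lowest of the list were Prim1, the primase subunit that starts each new strand (5.66 FPKM in fl/fl against 2.26 in AD1KO, -1.32), and Mcm10, which acts at origin firing (1.55 and 0.66 FPKM, -1.22). The highest were Mcm8, a helicase of recombination (1.09 and 1.6 FPKM, 0.55), and Orc4, an origin recognition subunit made throughout the cycle (8.21 and 9.53 FPKM, 0.21). Of 60 other mitotic genes, 38 were at or below -0.5 and none at or above 0.5, with a median of -0.60. Cdc25c, the phosphatase that activates CDK1, was lowest (1.37 and 0.31 FPKM, -2.11, from 54 reads in all), followed by Sgo1, the guardian of centromere cohesion (0.87 and 0.33 FPKM, -1.37). Kif18a (0.35 and 0.39 FPKM, 0.15) and the tubulin gene Tuba1b (473 and 513 FPKM, 0.12) were highest. Tuba1b encodes a tubulin used in all cells.

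**Figure D4:**
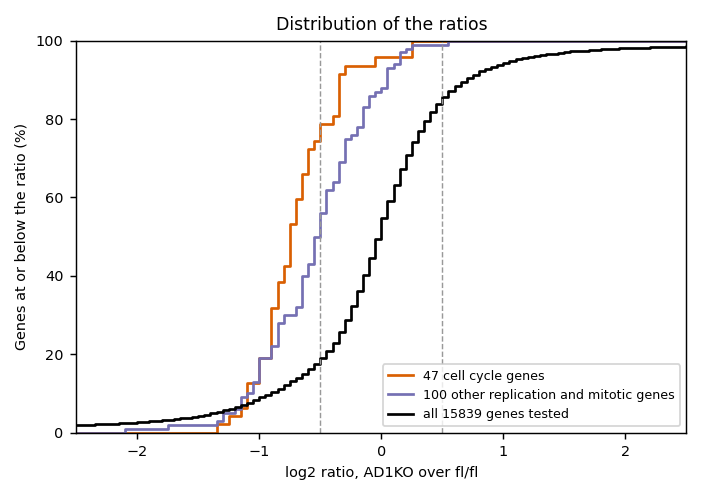
Percentage of genes at or below each log2 ratio of AD1KO over fl/fl, for the 47 cell cycle genes, 100 other replication and mitotic genes, and all 15839 genes tested, with dashed lines at -0.5 and 0.5. At -0.5 the curves stand at 78.7%, 56% and 19.1% of the genes.

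The regulators upstream were more mixed. In the list of 19 E2F, DREAM and MuvB genes, 6 were at or below -0.5 and none at or above 0.5, with a median of -0.15. The repressor-type E2f8 (1.54 FPKM in fl/fl against 0.76 in AD1KO, -1.01) and Mybl2, which encodes B-MYB (1.43 and 0.75 FPKM, -0.92), were lowest, followed by E2f2 (2.34 and 1.41 FPKM, -0.73). E2f7 was at -0.68 and the pocket protein gene Rbl1 at -0.61, and the interval of E2f7 included 0. The sixth was E2f4, the most abundant of the list (24.1 and 16.9 FPKM, -0.51), an E2F that works with the pocket proteins in resting cells. E2f1, the activator, was at 9.58 and 8.81 FPKM, a ratio of -0.12 (interval -0.31 to 0.07). Rb1, which holds E2F in check, was at 17.0 and 21.5 FPKM, a ratio of 0.34 (interval 0.22 to 0.46), and Lin52 (5.09 and 6.65 FPKM) and Tfdp2 (2.67 and 3.48 FPKM) were highest, at 0.39 and 0.38.

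The D-type cyclins, which answer to growth signals, took opposite directions. Ccnd1 was at 17.4 FPKM in fl/fl against 9.25 in AD1KO, a log2 ratio of -0.91 (interval -1.05 to -0.76). Ccnd2 was at 44.6 and 60.4 FPKM, a ratio of 0.44 (interval 0.38 to 0.49), and Ccnd3 at 68.6 and 84.1 FPKM, a ratio of 0.29 (interval 0.21 to 0.38). Of the kinases, Cdk6 (2.42 and 1.48 FPKM) was at -0.71, Cdk2 (6.96 and 5.26 FPKM) at -0.40 and Cdk4 (74.7 and 57.9 FPKM) at -0.37. Of the 10 CDK inhibitors and p53 pathway genes, none was at or below -0.5 and 1 was at or above 0.5, with a median of -0.18. That gene was Cdkn2c, which encodes the CDK4 and CDK6 inhibitor p18 (74.5 and 110 FPKM, 0.56). Cdkn1a, which encodes p21, was at 102 and 90.0 FPKM, a ratio of -0.18. Cdkn1b and Cdkn1c were at -0.19 and -0.18, and Cdkn2a, at 2.58 and 2.21 FPKM, was at -0.22 with an interval that included 0. Cdkn2b was at 0.43, Cdkn2d at -0.27, and Trp53, the p53 gene, at -0.32 (37.5 and 30.1 FPKM).

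Markers of immune cell types were mostly lower in AD1KO, as the 47 cell cycle genes were, and their part in the ratios was not tested. Macrophage markers were at or below -0.5 in 14 of 15 genes, with a median log2 ratio of -1.13, and summed to 7592 FPKM in fl/fl against 3302 in AD1KO. Lyz2, lysozyme, was the most abundant of them (2341 and 1187 FPKM, -0.98), Fcgr1, an Fc receptor, the lowest (41.2 and 10.1 FPKM, -2.03) and Mertk the highest (-0.48). The log2 ratio of the summed reads was -1.18 for these markers (interval -1.19 to -1.16) and -0.78 for the 47 cell cycle genes. T cell markers were lower in 11 of 11 genes (median -1.58, from Cd5 at -2.22 to Thy1, the most abundant, at -0.71), and summed to 158 and 67.6 FPKM. NK and cytotoxic cell markers were lower in 8 of 8 genes (summed 57.0 and 13.8 FPKM, from Ncr1 at -2.91 to Eomes at -1.57, with Nkg7 most abundant at -2.02). The medians of the T cell and NK lists were below that of the macrophage list. B and plasma cell markers were lower in 6 of 10 genes (median -0.69, summed 238 and 120 FPKM, from Mzb1 at -1.5 to Ms4a1 at -0.03, with Jchain most abundant at -1.44). Dendritic cell markers were lower in 6 of 8 genes (median -0.90, summed 31.2 and 17.2 FPKM, from Clec9a at -2.17 to Cd209a at 0.68, with Batf3 most abundant at -1.18). No defining marker of an immune cell type was at 0 in either library.

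Markers of the resident cells stood differently. Mature adipocyte markers were at or above 0.5 in 10 of 12 genes, with a median log2 ratio of 0.58, and summed to 18010 FPKM in fl/fl against 28070 in AD1KO, so that markers of the labelled tissue were abundant in both. Fabp4, the fatty acid carrier, was the most abundant (11150 and 15920 FPKM, 0.51), Pparg the lowest (0.37) and Cfd, adipsin, the highest (1.5). Stromal progenitor markers had a median of 0.07, with 3 of 10 genes lower and 2 higher (summed 1572 and 1442 FPKM, from Ly6a at -1.30 to Dlk1 at 1.78, with Dcn most abundant at 0.20). Blood endothelial markers had a median of 0.30 with 1 of 10 genes higher and none lower (summed 130 and 155 FPKM, from Pecam1 at 0.10 to Tie1 at 0.50, with Cldn5 most abundant at 0.26). The medians of the adipocyte and endothelial lists were above 0. The stromal progenitor list held genes in both directions around its median of 0.07, and its highest, Dlk1, rests on 9 and 34 reads. Mesothelial markers were higher in 6 of 8 genes (median 0.76, summed 98.2 and 175 FPKM, from Krt18 at 0.05 to Upk3b, the most abundant, at 1.07). Erythroid markers had a median of 0.00 (summed 8828 and 7921 FPKM). Of these, Hba-a1 was most abundant at -0.29 and Alas2 had the lowest ratio among genes with at least 20 reads, at -0.30. Hba-a2, a near-identical copy of Hba-a1 whose reads may be divided with it, was highest at 1.93. Markers of reproductive tract epithelium, an organ next to the gonadal fat pad in females, were lower in 6 of 8 genes and had the lowest median of the marker lists, -2.30 (summed 21.9 and 12 FPKM). Among them Ltf was at 5.09 and 0.20 FPKM, Ovgp1 was at 3.51 and 0.17 FPKM, Pax8 was listed at 0 in AD1KO, which allows up to 3 reads, and Krt7 was the most abundant and the highest at 0.42. Whether tissue of that kind contributed cell cycle mRNA to the fl/fl library was not tested.

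**Figure D5:**
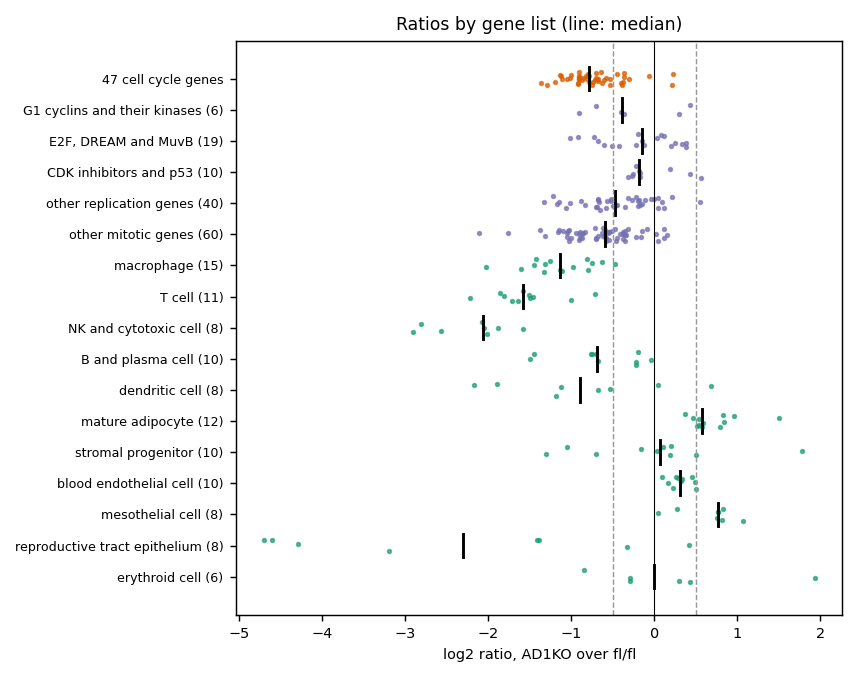
Log2 ratio of AD1KO over fl/fl for single genes (points) in the 47 cell cycle genes, 5 lists of other cell cycle genes and 11 lists of cell type markers, with the number of genes in brackets, the median as a black line and dashed lines at -0.5 and 0.5. The medians are -0.79 for the cell cycle genes, -1.13 for macrophage markers and 0.58 for mature adipocyte markers.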

How the data were processed

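Total RNA of gWAT from 4 mice per group was pooled by the authors, and their service provider selected mRNA, sequenced it and aligned clean reads to mouse mm9. The aligner and the quantifier are not given in the sources used here, and the library kit is not described as stranded, so reads of a gene and an overlapping gene on the other strand cannot be told apart. The submitters' processing notes list mm9 and mm10. The authors deposited 1 table of both libraries, whose expression columns have no unit in the header. The deposited values were taken as FPKM, with 0 written as 0.01. Their low values fall on whole-read steps that scale with transcript length, which does not itself name the unit. The authors' own fold changes, p-values and FDR in the table were not used, 0 sample columns were left unassigned, and the 2 RRBS samples were not used.

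Values of 0.01 were set back to 0. The log2 ratio is that of AD1KO over fl/fl after adding 0.01 FPKM, a scale that understates differences of low genes. A gene was tested at 0.1 FPKM or more in 1 library and counted as lower or higher at a log2 ratio of 0.5 in either direction. Reads were estimated from FPKM, transcript length less 117 bases and the depth at which low values fall on whole reads. That gave 17670000 reads in fl/fl and 17530000 in AD1KO, at which 85.9% of 921 low values in fl/fl and 83.9% of 932 in AD1KO lay within 0.2 of a whole read. Estimated reads summed to 17803515 and 17632610, with a median of 573 per tested gene over both libraries. Intervals are exact Clopper-Pearson intervals at 95% of the share of reads in AD1KO. Reads carried no molecular identifiers, so intervals cover counting error only, and a gene at 0 allows up to 3 reads. With 1 pooled library per group no p-value was computed.

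The 47 genes and all lists were chosen with earlier results of these data known. Named were all 47 genes, a fixed set of regulators, in each pathway list the 2 lowest and 2 highest ratios among genes with at least 20 reads, and in each marker list the most abundant, lowest and highest gene. Symbols were matched by name or RefSeq synonym. Exon overlaps are from the GENCODE annotation of mm9 and promoters from RefSeq, GRCm38.p6. Alternatives were 3 scalings (trimmed mean of M-values, trimming 30% of ratios and 5% of levels, the upper quartile and the median of ratios), other pseudocounts, filters and thresholds, and a shorter promoter window. Steps were tested on simulated data. Software was pandas 2.3.3, SciPy 1.17.1 and NumPy 2.4.6 under Python 3.11.15, with Matplotlib 3.10.9 for plots.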

Additional observations from a re-analysis of the deposited data

How the results depend on the processing

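No paired analysis was possible because there was 1 pooled library per group, and for the same reason no library could be left out. The median log2 ratio of the 47 genes ran from -0.79 to -0.60 over the settings tried, and none of the 47 was at or above 0.5 under any of them. Scaling by trimmed mean of M-values, upper quartile or median of ratios removed shifts of -0.04, -0.09 and -0.04 and left 35, 34 and 35 of the 47 lower. Of all 15839 genes tested, 2804, 2621 and 2828 were then lower and 2492, 2771 and 2452 higher. Under upper quartile scaling more genes were therefore higher than lower. Gins1 took a ratio at or above 0 under upper quartile scaling only. A pseudocount of 1 FPKM left 31 of the 47 lower, changed the median of Mki67 and Top2a to -0.83 and gave 1661 lower and 965 higher among all genes, since it shrinks the ratios of low genes. A minimum of 1 FPKM gave 1281 higher among 12706 genes. A log2 ratio of 1 left 9 of the 47 lower and, over all genes, 1417 lower and 910 higher. By the whole counting interval past 0, 43 of the 47 and 4596 of all genes were lower and 3412 of all genes higher. Chosen after seeing the data, leaving out genes whose reads may be shared left 24 of 30 lower, and a read minimum equal to that of the lowest of the 47 left 1983 lower and 1245 higher among 12846 genes. The promoter window of 150 bases before the start gave 73% with an NF-Y box, 54.1% with a CHR element and 18.9% with an E2F word. Depth limits Ccne2, Cdc6, Bub1, Ndc80, Cenpf and Ect2 most, whose intervals are the widest. Pooling leaves the variation between mice unmeasured.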

Other observations

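Further gene lists were chosen after the data were seen, and their counts stand beside the 19.1% of all genes tested at or below -0.5 and the 14.3% at or above 0.5. Of 30 DNA repair genes that act in replicating cells, 12 had a log2 ratio of AD1KO over fl/fl at or below -0.5 and none at or above 0.5, with a median of -0.41. The lowest were Rad54l, a motor of homologous recombination (1.01 FPKM in fl/fl against 0.37 in AD1KO, -1.42), and Fancd2, the central protein of the Fanconi anemia pathway (0.56 and 0.24 FPKM, -1.19). Xrcc3 (3.18 and 4.25 FPKM, 0.42) and Blm (0.48 and 0.64 FPKM, 0.41) were highest, and the interval of Blm included 0. The count of lower genes holds for the chosen 30 only. In the broad annotation term DNA repair, without the main cell cycle genes, 25 of 192 genes (13%) were at or below -0.5, under the 19.1% of all genes. In that term 10 genes (5.21%) were at or above 0.5, and the median was -0.14. A list of 16 genes of cohesin, condensin and the nuclear envelope, which are used by resting cells as well, had a median of -0.15. In it 1 gene was at or below -0.5, Lbr (6.29 and 4 FPKM, -0.65). That count depends on how genes were split between lists. The condensin genes Ncapg, Ncapd2 and Ncaph and the lamin gene Lmnb1 were counted only among the other mitotic genes. Of these, Ncapg, Ncapd2 and Lmnb1 (-0.91) were at or below -0.5, and Ncaph was at -0.35. Smc2 and Smc4 were counted in both lists.

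Of 8 genes of macrophage growth factors, cytokine receptors (Il4ra among them) and osteopontin, 6 were at or below -0.5, with a median of -0.81. One of the 6, Csf2, had 2 reads in fl/fl and 1 in AD1KO, too few to give a direction, and Csf1r is also in the macrophage marker list. Spp1, osteopontin, was lowest (35.0 and 16.5 FPKM, -1.09). The receptor gene Csf1r was at 127 and 72.8 FPKM (-0.81), while its ligand genes Csf1 (16.2 and 12.5 FPKM, -0.37) and Il34 (8.61 and 7.32 FPKM, -0.23) stood nearer to 0, and the interval of Il34 included 0.

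Broad annotation terms held few genes at or above 0.5, against 14.3% of all genes tested, and a share at or below -0.5 that was under that of the 47. With the 47 left out, 31 of 241 genes of the term cell cycle (12.9%) were at or below -0.5 and 15 at or above 0.5 (6.22%), and 46 of 272 of cell division (16.9%) were at or below -0.5 and 10 at or above 0.5 (3.68%). For DNA replication the counts were 17 of 81 (21%) and 1 (1.23%), and for chromosome segregation 13 of 58 (22.4%) and 0. For DNA replication initiation they were 2 of 13 (15.4%) and 1 (7.69%), and for DNA repair 25 of 192 (13%) and 10 (5.21%). Kinetochore had 10 of 60 (16.7%) and 0, and spindle had 17 of 87 (19.5%) and 2 (2.3%). Shares at or below -0.5 were under the 19.1% of all genes tested for cell cycle, cell division, DNA repair, DNA replication initiation and kinetochore. They were above it for DNA replication, chromosome segregation and spindle.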
